A study of Mus musculus with 16 samples.

Results

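RNase P and RNase MRP are ribonucleoprotein endonucleases of the nucleus. Described here are the transcripts of their 10 protein subunits, Rpp30, Rpp14, Rpp21, Rpp25, Rpp38, Rpp40, Pop1, Pop4, Pop5 and Pop7, among 32207 genes counted in brain oligodendrocytes of young mice. Rpp30 was chosen by its own pattern in these libraries, a lower level in BPA-exposed males, and the other 9 genes were added because their proteins share its complex. Every value of Rpp30 is therefore given as a description without a test. All 10 subunits passed the filter on low counts, as did 16339 genes in all.

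Cells carrying the O4 antigen, a surface lipid of late precursors and oligodendrocytes, were captured with magnetic beads from brains of OF-1 mice, an outbred strain, at postnatal day 16. The 4 groups of 4 libraries each were control males, control females, BPA males and BPA females. Bisphenol A (BPA), a plastics monomer that binds estrogen receptors, had reached the pups through their mothers from gestational day 7 and on through lactation, at an estimated 40 µg/kg per day. RNA came from the sorted cells not used for a chromatin assay, and polyadenylated RNA was sequenced with a strand-marking kit. Libraries held 23603816 to 42575326 counts, and the sex markers matched the labelled sex in 16 of 16. The labels do not give litters, so the spread between libraries may be that between pups, litters or preparations. In such bulk samples, fewer cells of a type and less RNA per cell cannot be told apart.

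RNase P removes the 5′ leader from precursor transfer RNAs, and RNase MRP cuts the precursor of ribosomal RNA in its first internal spacer. Each enzyme is built on its own catalytic RNA, Rpph1 for RNase P and Rmrp for RNase MRP, with a largely shared coat of proteins. In the human RNase P structure the proteins form a finger (Pop1 with the Rpp25 and Pop7 pair, where Pop7 is also called Rpp20), a palm (Pop5, Rpp14, Rpp40 and copies of Rpp30) and a wrist (Rpp21, Rpp38 and Pop4, also called Rpp29). Myelinating cells make large amounts of protein and so depend on transfer RNA and ribosome supply.

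The promoters of Rpp30, the member that stood apart, and of Pop4, the member with the highest level, are shown as the 250 bases before the start site, from RefSeq on GRCm38.p6, for which 8 of the 10 members had an entry. Rpp30 lies on chr19:36083466-36083715, plus strand, and Pop4 on chr7:38271349-38271598, minus strand. Capitals mark matches to the motifs listed after the sequences.
Rpp30: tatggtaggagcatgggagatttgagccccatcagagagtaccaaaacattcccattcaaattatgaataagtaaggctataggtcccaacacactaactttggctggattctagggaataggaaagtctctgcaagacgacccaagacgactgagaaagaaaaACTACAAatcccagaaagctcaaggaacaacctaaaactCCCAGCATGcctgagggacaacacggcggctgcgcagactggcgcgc
Pop4: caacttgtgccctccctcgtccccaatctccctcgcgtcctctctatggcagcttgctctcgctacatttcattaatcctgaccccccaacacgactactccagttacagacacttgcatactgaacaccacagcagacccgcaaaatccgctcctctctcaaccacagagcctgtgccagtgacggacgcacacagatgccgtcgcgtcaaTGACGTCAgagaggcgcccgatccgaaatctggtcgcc
The capitals in Rpp30 are ACTACAA and CCCAGNATG, which are parts of the site bound by the factor ZNF143, at −86 and −47 from the start site. Those in Pop4 are TGACGTCA, the CREB site, at −38. A YY1 core, ATGGCGGC, was also found in Rpp30, past the start site at 21 bases.

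Over 300 bases, from 250 before to 50 after the start, and on both strands, ACTACAA was present in 3.24% of 32851 promoters, CCCAGNATG in 2.04%, ATGGCGGC in 2.24% and TGACGTCA in 1.79%. None of the 8 member promoters held the ETS core CCGGAAGT (3.89% of all promoters), the NRF1 core CGCATGCG (1.87%), the TATA letters TATAAA (13.6%) or the estrogen response element GGTCANNNTGACC (0.0700%). ACTACAA, CCCAGNATG and ATGGCGGC were each found in Rpp30 and in no other member promoter, but they were put on the list with the Rpp30 promoter in view. CGCATGCG reads the same on both strands, as do TGACGTCA and the estrogen response element. The Rpp30 window had a GC content of 49%, against a median of 52.7% over all promoters and 50.7% to 65.7% in the other 7 members. A match is a description of letters and not of a bound factor.

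In control cells the subunit transcripts differed widely in level. Levels between genes are compared here as the authors' normalized counts per kilobase of median transcript length (counts per kb), as mean ± SD of the 8 control libraries. Pop4, which contacts the catalytic RNA, had the highest at 1312 ± 169.9, followed by Pop5, a core protein of the palm, at 1176 ± 73.0. Their ranges overlapped, and both lay above every other member. Rpp21, a zinc-binding protein known from RNase P, stood at 618 ± 78.2 and Rpp30 at 551 ± 62.0. Rpp14 at 419 ± 21.6 and Pop7 at 412 ± 45.99 came next, and each neighbouring pair from Rpp21 down to Pop7 overlapped. Pop1, the largest of the proteins, was lower at 219 ± 19.1, apart from Pop7 above it and from Rpp38 below it. Rpp38, a protein of the L7Ae family that binds kink-turn RNA, was at 155 ± 13.7 and Rpp40 at 128 ± 7.66, with overlapping ranges. Rpp25 was the lowest at 11.8 ± 4.03 and shared no range with any other.

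**Figure D1:**
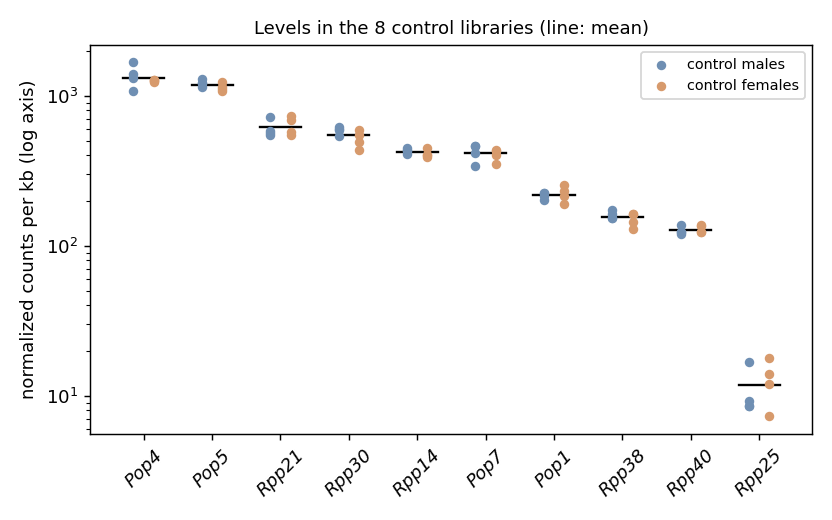
Level of each subunit in the 8 control libraries, as normalized counts per kb on a log axis. Points are libraries (4 control males, 4 control females) and lines are means; Pop4 and Pop5 lie highest, near 1312 and 1176, and Rpp25 lowest, near 11.8.

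Rpp25, which pairs with Pop7 in the finger, was therefore a scarce message in these cells. Its counts ran from 6 to 30 per library, so that its values carry the widest counting error of the members. Its paralog Rpp25l, whose product resembles Rpp25, was far more abundant in control males, at 349 ± 23.6 counts per kb (SD, n = 4) against 10.8 ± 4.04 for Rpp25. In control females Rpp25l stood at 361 ± 14.1 and Rpp25 at 12.8 ± 4.35. No 50-base stretch of an annotated Rpp25 or Rpp25l transcript (GENCODE M21) occurs in a transcript of another gene.

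Among the palm proteins, Rpp30 was the subunit that stood apart. In CPM, which are counts scaled to the same library total with trimmed-mean factors, it measured 20.04, 19.7, 20.7 and 17.9 in the 4 control males, and 10.5, 9.96, 14.1 and 11.97 in the 4 BPA males. The 4 control females measured 14.6, 16.4, 19.9 and 18.3, and the 4 BPA females 16.5, 18.4, 18.05 and 11.3. All 4 BPA males lay below all 8 controls of either sex, though the highest, at 14.1, was close to the lowest control, at 14.6. The share of all genes with that pattern against 8 controls was not counted. Of the BPA females, 3 lay within the control range and BPA female 4 lay within the range of the BPA males. Group means were 19.6 ± 1.200 in control males, 11.6 ± 1.88 in BPA males, 17.3 ± 2.29 in control females and 16.0 ± 3.29 in BPA females (SD, n = 4 each).

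**Figure D2:**
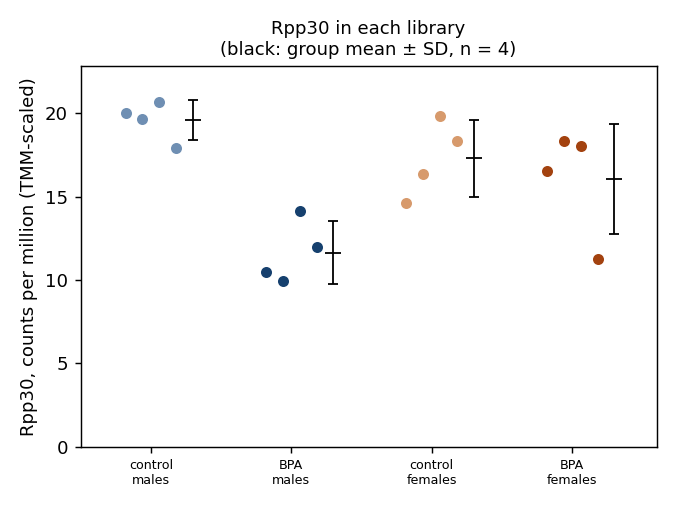
Rpp30 in CPM (vertical axis, from 0) in each of the 16 libraries, by group, with the group mean ± SD (n = 4) in black. The 4 BPA males sit between 9.96 and 14.1, and 1 of the 4 BPA females, at 11.3, lies among them.

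The log2 fold change of Rpp30 between BPA and control males was −0.77 ± 0.15 (SE), a fold of 0.584 with a 95% interval from 0.471 to 0.725. In females it was −0.09 ± 0.14, and it turned to 0.04 when BPA female 4 was left out. The difference of these effects, females minus males, was 0.69 ± 0.20, and over both sexes the value was −0.43 ± 0.10. Leaving out any 1 library kept the male value between −0.86 and −0.70. Since the gene was chosen on this contrast, these values describe it and give no evidence beyond the choice. The interval takes no account of that choice and is not to be read as a test. The limma-voom fit over all 16 libraries called 1 of 16339 genes in males at an adjusted p under 0.05, or 0.00612% of those tested. That gene was neither Rpp30 nor any of the other 9 subunits. Non-overlap of the kind seen for Rpp30, with all 4 BPA males below all 4 control males, was met by 462 genes, or 2.83%.

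Per transcript length, Rpp30 made up a smaller part of the subunit pool in BPA males. This share restates the low Rpp30 level for which the gene was chosen and is no separate result. Its share of the 10 subunits' summed counts per kb was 11.5% ± 0.907 in control males and 6.94% ± 0.748 in BPA males, with BPA males from 6.20% to 7.96% and control males from 10.8% to 12.8%. In females the share was 10.6% ± 1.37 in controls and 9.89% ± 1.60 with BPA. The summed level of the other 9 subunits was 4540 ± 426 counts per kb in control males and 4660 ± 339 in BPA males, so the pool without Rpp30 differed by less than the spread between libraries. The BPA female with the low Rpp30 level had a share of 7.49%, within the range of the BPA males.

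Rpp30 is a protein with a barrel fold, and its partners in the palm showed no such step between the male groups. Rpp14, its direct partner, measured 18.8, 17.1, 18.3 and 17.8 CPM in control males and 16.8, 19.2, 18.7 and 18.6 CPM in BPA males. Those groups overlapped, and the log2 fold change was 0.02 ± 0.07 with a 95% interval from −0.13 to 0.17. In females Rpp14 ranged from 16.4 to 19.8 CPM over all 8 libraries, with a log2 fold change of 0.06 ± 0.07. The Rpp14 locus also carries Htd2, an enzyme of mitochondrial fatty acid synthesis read from the same transcript, and the counts do not separate them.

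Pop5 was the steadiest member across all libraries, with a coefficient of variation of 5.69% against 22.4% for Rpp30. Its level was 20.9, 18.4, 19.7 and 19.4 CPM in control males and 19.9, 17.3, 19.97 and 19.6 CPM in BPA males. The groups overlapped, the log2 fold change being −0.04 ± 0.07 in males and 0.07 ± 0.07 in females. Pop5 overlaps Rnf10 on the opposite strand, and whether strand was used in the counting is not given in the sources used here. Rpp40, the remaining palm protein, measured 7.85, 7.53, 8.67 and 7.73 CPM in control males and 8.14, 6.17, 7.94 and 7.62 CPM in BPA males. Its groups overlapped in males, at −0.11 ± 0.10 on the log2 scale, which became −0.01 without BPA male 2. In control females it measured 7.77, 8.54, 8.73 and 7.78 CPM, and in BPA females 7.14, 7.57, 7.69 and 7.54 CPM. There all 4 BPA females lay below all 4 controls, as they did for 336 genes or 2.06% of those tested, with a log2 fold change of −0.13 ± 0.09 (unadjusted p = 0.183, adjusted p = 0.999, limma-voom).

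In the finger, Pop1 was the 1 subunit other than Rpp30 whose male groups did not overlap, and it lay on the higher side. Pop1, which wraps the catalytic RNA, measured 3.87, 4.34, 4.08 and 4.28 CPM in control males and 4.68, 5.33, 4.66 and 5.29 CPM in BPA males. All 4 BPA males were above all 4 control males, as they were for 265 genes or 1.62% of those tested. The log2 fold change was 0.28 ± 0.11 with a 95% interval from 0.04 to 0.51, and it did not pass the adjustment over all genes (unadjusted p = 0.0259, adjusted p = 0.550, limma-voom). In females Pop1 measured 4.11, 4.85, 4.47 and 3.68 CPM in controls and 4.77, 4.92, 4.07 and 4.74 CPM with BPA. These groups overlapped, at 0.11 ± 0.11 on the log2 scale. The effect of Pop1 in females minus that in males was −0.16 ± 0.16, with a 95% interval from −0.50 to 0.17, and over both sexes the log2 fold change was 0.19 ± 0.08 (adjusted p = 0.551, limma-voom).

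Pop7 is the partner of Rpp25 in an Alba-type pair. It measured 12.6, 9.22, 12.6 and 11.2 CPM in control males and 11.7, 9.93, 12.8 and 11.9 CPM in BPA males, with means of 11.4 and 11.6. The male log2 fold change was 0.00 within an interval from −0.23 to 0.23, and its sign turned with small changes of the fit. In females the means were 11.1 ± 1.02 CPM in controls and 9.88 ± 0.706 CPM with BPA, with overlapping groups and a log2 fold change of −0.16 ± 0.11 (adjusted p = 0.999, limma-voom). Pop7 overlaps Epo on the same strand, which stayed at or below 0.0332 CPM in every library. Rpp25 measured 0.384, 0.355, 0.697 and 0.354 CPM in control males, where control male 3 was high, and 0.407, 0.324, 0.402 and 0.326 CPM in BPA males. Its groups overlapped, at −0.25 ± 0.31 on the log2 scale in males and −0.37 ± 0.30 in females, errors that leave room for a change as large as that of Rpp30 in either sex. Without control male 3 the male value was −0.03, and leaving out 1 library moved the female value between −0.61 and −0.18.

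The paralog Rpp25l had higher values in BPA males. It measured 9.41, 9.11, 8.20 and 8.18 CPM in control males and 10.1, 10.6, 11.1 and 9.33 CPM in BPA males, so that 1 BPA male lay within the control range. The log2 fold change was 0.23 ± 0.08 and did not pass the adjustment (unadjusted p = 0.0103, adjusted p = 0.487, limma-voom). In females the means were 9.06 ± 0.369 CPM in controls and 9.02 ± 0.485 CPM with BPA, and the sex difference of the effect was −0.24 ± 0.11 (unadjusted p = 0.0490, adjusted p = 0.999). Rpp25l overlaps Il11ra1 on the opposite strand, a gene at 1.73 ± 0.403 CPM in control males and 2.31 ± 1.501 CPM in BPA males.

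The wrist proteins showed no separation by exposure. Pop4 measured 32.9, 25.3, 39.1 and 30.8 CPM in control males and 35.2, 27.7, 33.9 and 36.98 CPM in BPA males, overlapping groups with a log2 fold change of 0.06 ± 0.11. In females it was −0.02 ± 0.11, and the control females stood close together, between 29.0 and 30.1 CPM. Rpp21 ranged from 7.92 to 10.4 CPM in control males and from 7.60 to 10.99 CPM in BPA males. Rpp21 had a log2 fold change of 0.06 ± 0.14 in males and −0.08 ± 0.13 in females. Rpp38 ranged from 4.65 to 5.27 CPM in control males and from 3.86 to 5.54 CPM in BPA males, at −0.08 ± 0.13, and in females it stood at −0.03 ± 0.13. For Pop4 in males the 95% interval ran from −0.18 to 0.30, for Rpp21 from −0.23 to 0.34 and for Rpp38 from −0.36 to 0.19. None of these reached the value of Rpp30, but that gene was chosen for its low value here, so the comparison is only a description.

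**Figure D3:**
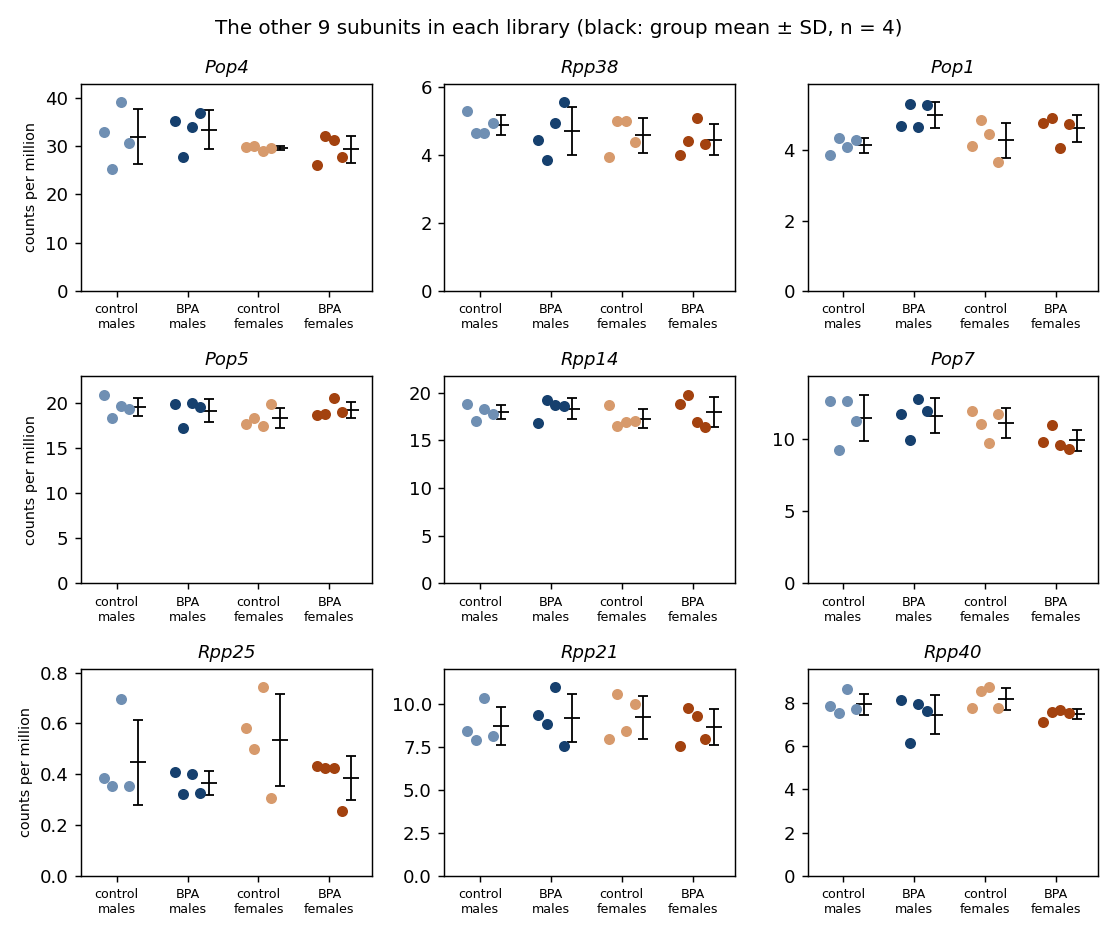
The other 9 subunits in CPM (vertical axes, from 0) in each of the 16 libraries, by group, with the group mean ± SD (n = 4) in black. In males only Pop1 has groups that do not overlap, with BPA males from 4.66 to 5.33 and control males from 3.87 to 4.34.

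**Figure D4:**
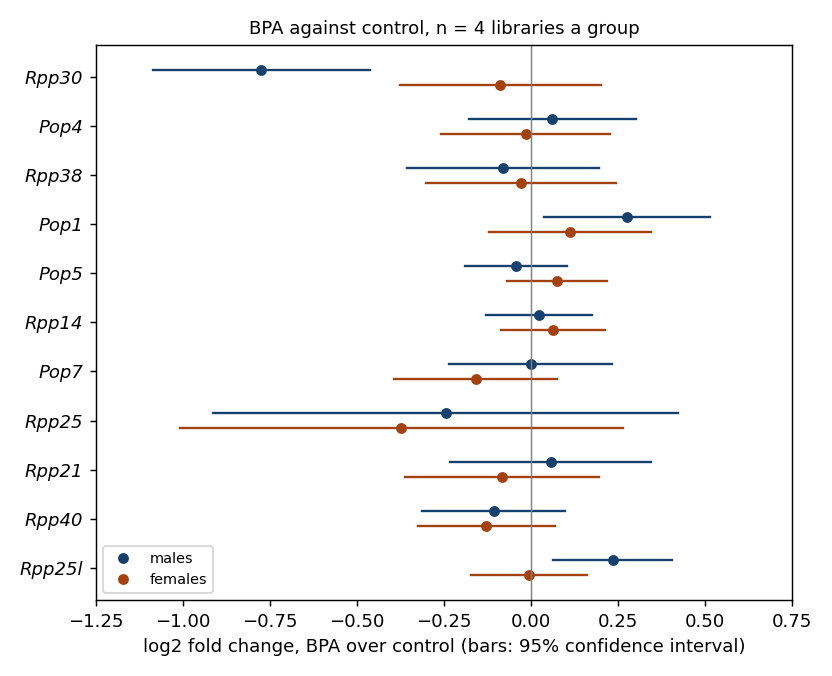
Log2 fold change of BPA over control for the 10 subunits and the paralog Rpp25l, with 95% confidence intervals, in males and females (n = 4 libraries a group). Rpp30 in males is the lowest at −0.77, and Rpp25 has the widest intervals. Rpp30 was chosen on the male contrast, so its interval there is not a test.

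By counts over the set, the subunits did not shift together. In males 4 of 10 were higher and 6 lower, with a median log2 fold change of −0.02 against 0.01 over all genes, and in females 3 were higher and 7 lower, with a median of −0.06 against 0.00. Over all genes 52.5% were higher in males and 50.6% in females. Rpp30, chosen for its low BPA males, is among the lower genes in these counts and medians for both sexes. Rpp30 is left out of the counts of calls that follow, since it was chosen on its pattern in these libraries. By limma-voom 0 of the other 9 subunits were called in males, in females, over both sexes, for the difference between the sexes, or between females and males in controls or with BPA. Limma on log2 CPM with a trend also called 0 in each. At an unadjusted p under 0.05 the male comparison held 1 of the 9, Pop1, where 7.96% of all genes passed. The female comparison held 0 of 9, against a background of 4.55% unadjusted and 0% adjusted. Over both sexes Pop1 again passed unadjusted, with 7.69% of all genes, while 0.0184% were called after adjustment.

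For the difference between the sexes 0 of the 9 passed unadjusted, against a background of 4.72% unadjusted and 0% adjusted. Between control females and control males 0 of the 9 passed, where 2.91% of all genes passed unadjusted and 0.0551% adjusted. With BPA 0 of the 9 passed, against 6.45% unadjusted and 0.0490% adjusted. Rpp30 itself had a log2 difference of 0.51 ± 0.15 between BPA females and BPA males and of −0.18 ± 0.13 between control females and control males, females over males, given as a description because it was chosen on the low BPA males.

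Across the 16 libraries the subunits varied together only in part. Over the 45 pairs the median Pearson correlation of log2 CPM was 0.20, and it was 0.15 over the 9 pairs with Rpp30 and 0.23 over the 36 pairs without it. The highest pair was Pop4 with Pop7, at r = 0.78, and the same value was found with group means removed. With Rpp30, Rpp40 had r = 0.48, Rpp25 0.47, Rpp38 0.33, Pop5 0.18, Rpp21 0.15, Pop7 0.05, Rpp14 −0.01, Pop4 −0.03 and Pop1 −0.65. The value of Pop1 was −0.23 with group means removed. These correlations share libraries and depth and are given as a description.

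The genes whose log2 CPM was most like that of Rpp30 over the 16 libraries, among 13429 genes, were Parp1 with r = 0.92, Steap2 with 0.88, Ankrd44 with 0.87, Foxp4 with 0.87 and Pcdhb18 with 0.86. Parp1, a poly(ADP-ribose) polymerase of the DNA damage response, had means of 146.8 CPM in control males, 117.8 in BPA males, 145.8 in control females and 133.3 in BPA females. Steap2, a metalloreductase, stood at 24.0 CPM in control males and 14.3 in BPA males, a log2 fold change of −0.74 ± 0.17 in males and −0.21 in females. Foxp4, a forkhead transcription factor, fitted −0.29 ± 0.08 in males and −0.01 in females, and Pcdhb18, a clustered protocadherin, −0.37 ± 0.07 and −0.06. Being most alike in pattern to a gene chosen for that pattern, they carry no test.

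Of the genes beside Rpp30 on chromosome 19, Htr7 and Ankrd1 were barely detected, at no more than 0.224 and 0.0424 CPM in any library. Pcgf5, a Polycomb group ring finger gene, named here after its values were seen, measured 14.97 ± 1.06 CPM in control males and 11.3 ± 1.25 CPM in BPA males. Its log2 fold change was −0.41 ± 0.11 in males (adjusted p = 0.384, limma-voom) and 0.01 ± 0.11 in females. Of the 50-base stretches of annotated Rpp30 transcripts, 2.36% occur in transcripts of other genes, as did 1.84% of those of Rpp40 and none of those of the other 8 subunits.

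The level of Rpp30 was correlated over the 16 libraries with that of markers of precursor and newly formed oligodendrocytes. Their summed level was 5999 to 7158 CPM in control males and 5171 to 5739 CPM in BPA males, with no overlap, and 7 of 7 markers were lower in BPA males with a median log2 fold change of −0.28. In females 7 of 7 were higher with BPA at a median of 0.12, whereas the Rpp30 log2 fold change was −0.09. Over all genes 52.5% were higher with BPA in males and 50.6% in females. All 4 BPA males lay below all 4 control males for 2.83% of single genes, a share not worked out for sums. BPA female 4 had the lowest sum of its group, 5339 CPM, and also the lowest Rpp30. BPA male 3 had the lowest sum of the 16 libraries, 5171 CPM, but the highest Rpp30 of the BPA males, 14.1 CPM. Over the 16 libraries the log2 sum and log2 Rpp30 had a Pearson correlation of 0.70 and a Spearman correlation of 0.76. Rpp30 was chosen for its low level in BPA males, where this sum was also lower, so these values can follow from the choice. How many genes correlate as strongly with this sum was not counted. The Pearson value was 0.85 over 14 libraries without BPA female 2 and BPA male 3, the 2 whose sums were farthest from the median. That value leaves out BPA male 3, the exception named above, and so is no check of the correlation. It was 0.59 with group means removed. With group means removed, the sum of mural and fibroblast markers had a value larger in size, −0.64. The part of these cells in the Rpp30 result was not tested.

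Mature oligodendrocyte markers were at 113927 to 161211 CPM in BPA males and 133878 to 150882 CPM in control males, and all 8 of them, as the label oligodendrocyte requires, were above 1 CPM in every library. Markers of other cells were present too, with no marker at 0 in all libraries, and their part in the results was not tested. In BPA males 8 of 8 microglial, 7 of 7 astrocyte and 5 of 5 mural and fibroblast markers were higher. So were 3 of 3 ependymal and choroid plexus, 7 of 8 mature oligodendrocyte, 2 of 5 endothelial and 0 of 6 neuronal markers. Over all genes 52.5% were higher, and none of the markers was called. The Pearson correlation of Rpp30 with the mural and fibroblast sum was −0.59, with the ependymal and choroid plexus sum −0.50, with the neuronal sum 0.35, and with the astrocyte, endothelial and microglial sums −0.24, −0.23 and −0.21. Without the 2 libraries farthest from the median of each sum, these became −0.31, −0.62, 0.31, 0.06, −0.05 and −0.17 in the same order. With group means removed they were −0.64, −0.47, 0.05, −0.33, −0.54 and −0.22. For the mature oligodendrocyte sum the value was −0.07, with −0.52 without its 2 farthest libraries and 0.14 with group means removed. As Rpp30 was chosen for its low BPA males, all these correlations are given as a description. BPA male 2 had an astrocyte sum of 5667 CPM, and the highest of the remaining 15 was 2308 CPM. BPA males 1, 3 and 4 stood at 1684, 1022 and 867 CPM, against 1176 to 2150 CPM in control males. Of the BPA males, only BPA male 2 thus had an astrocyte sum above the control males. The mural and fibroblast and the endothelial sums were also highest in BPA male 2, at 95.3 and 110.5 CPM. BPA males 1, 3 and 4 had mural and fibroblast sums of 35.9, 36.6 and 31.0 CPM, against 20.5 to 36.3 CPM in control males. The mature oligodendrocyte sum of BPA male 2, 113927 CPM, was the lowest of the 16 libraries. With that library left out, the Rpp30 log2 fold change in males was −0.70 ± 0.16, and without both BPA male 2 and BPA female 1 it was −0.69 ± 0.16.

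The RNA components could be read only in part. Rmrp had no row in the table and was not analysed here. Rpph1, the catalytic RNA of RNase P and a product of RNA polymerase III without a poly(A) tail, had 3 to 25 counts per library in these poly(A)-selected libraries. Its level was 0.192, 0.197, 0.830 and 0.620 CPM in control males and 0.0872, 0.349, 0.168 and 0.298 CPM in BPA males. The groups overlapped, 68.1% of its 50-base stretches also lie in Ccnb1ip1, and the level of RNase P RNA in these cells was not measured by this assay.

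Of the genes on the lists of pathways beside RNase P, none was called in males or in females. The mitochondrial RNase P, a protein-only enzyme of Trmt10c, Hsd17b10 and Prorp, had 2 of 3 genes higher in males and 2 of 3 in females. Hsd17b10, a dehydrogenase that holds the methyltransferase Trmt10c, measured 23.3 ± 3.25 CPM in control males and 26.8 ± 1.71 CPM in BPA males, a log2 fold change of 0.21 ± 0.11 (adjusted p = 0.680, limma-voom). Trmt10c stood lowest among the 3 in females, at −0.16 ± 0.10.

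Among 15 genes of transfer RNA end trimming, splicing and ligation, 8 were higher and 7 lower in males, with a median log2 fold change of 0.00, and 4 were higher and 11 lower in females, with a median of −0.02. Fam98b, of the ligase complex, had the smallest p in males, at 0.09 ± 0.07. Elac1, a nuclease related to the 3′ trimming enzyme, had the smallest in females, at 10.5 ± 0.904 CPM in controls and 9.20 ± 0.282 CPM with BPA (adjusted p = 0.999, limma-voom). Of 29 genes of RNA polymerase III and its factors, which transcribe transfer RNAs and Rpph1 itself, 18 were higher in males and 17 in females, with medians of 0.02 and 0.01. Polr3b, the second-largest subunit, stood at 21.3 ± 1.97 CPM in control males and 23.9 ± 1.37 CPM in BPA males (adjusted p = 0.541, limma-voom), and Snapc5 at 25.8 ± 2.19 and 23.0 ± 2.55 CPM in control and BPA females.

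The 15 genes listed for ribosomal spacer processing had 7 higher and 8 lower in males and 9 higher and 6 lower in females. RNase MRP acts in this pathway, but the list also holds genes of other steps. Xrn2, a 5′ exonuclease, measured 57.1 ± 3.05 CPM in control males and 53.5 ± 0.495 CPM in BPA males, at −0.09 ± 0.05 (adjusted p = 0.654, limma-voom). Nob1, which makes the last cut of the small-subunit RNA, stood at 18.7 ± 0.953 CPM in control females and 20.6 ± 0.788 CPM in BPA females, at 0.14 ± 0.06 (adjusted p = 0.999). The medians of the list were −0.01 in males and 0.00 in females.

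**Figure D5:**
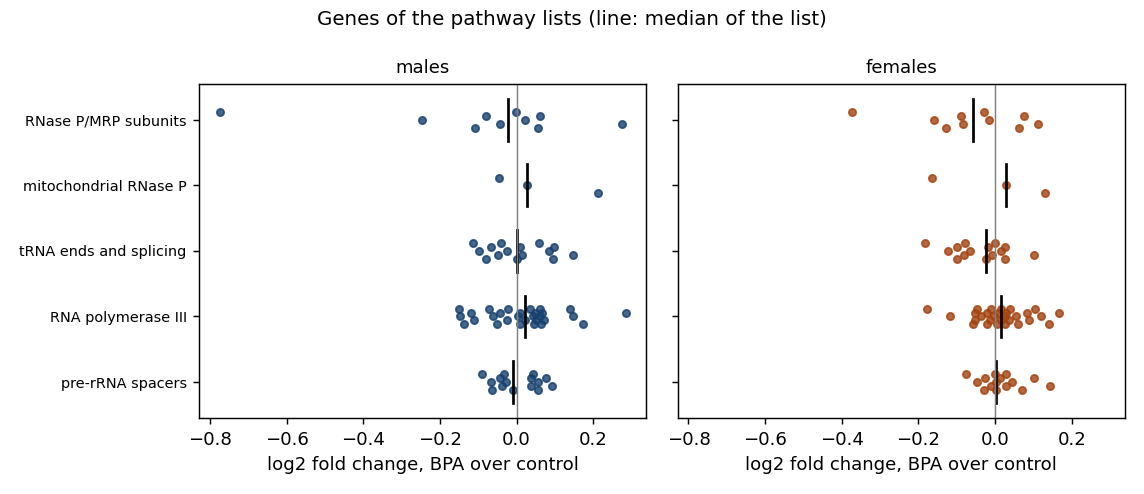
Log2 fold change of BPA over control for each gene of the 5 lists in males and females; points are genes and lines list medians. Rpp30 in males, at −0.77, lies apart from the other genes, and the list medians stay between −0.06 and 0.03.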

How the data were processed

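Polyadenylated RNA of 16 libraries was counted per gene. The submitters' processing notes list, as software of the authors, HTSeq 0.6.1p1, STAR 2.5.3a, DESeq2 1.16.1 and bcl2fastq 2.20.0.422, and as build mm39; the annotation release is not given in the sources used here. The deposited table holds raw counts per Ensembl gene and, per the labels, counts normalized by the authors and divided by the median transcript length in kb. Symbols were found for 31717 of 32207 genes. Samples were grouped by labelled sex and treatment. Genes with 10 counts at the median depth in at least 4 libraries, and 15 in total, were kept. Counts were scaled by trimmed means of M values and fitted over all 16 libraries with limma-voom (limma 3.58.1, R 4.3.3, robust), with 6 contrasts and Benjamini-Hochberg adjustment at 0.05. This replaced a planned count test, because the layout of the table did not allow its unit to be checked by code. The fit was tested on simulated data. CPM used the same scaling.

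The members and lists were chosen with earlier results of these data known. Named were the 10 members, the paralog and RNA components, the gene with the smallest p of each pathway list in each sex, the 5 genes most correlated with Rpp30 (mean of at least 1 CPM) and overlapping or neighbouring genes. Alternatives were median-of-ratios scaling, other filters, a trend fit, only the groups compared, a replicate block and leaving out libraries. Chi-square values per gene between libraries of 1 group were 16.6 to 134.6, so none were duplicates.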

Additional observations from a re-analysis of the deposited data

Results flagged for a closer look

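In 44 groups of 4 libraries looked at, for the members and Rpp25l, 3 held a library far from the others of its group by Dixon's criterion at 95%, where chance gives about 1 in 20. Rpp25 in control male 3 was at 0.697 CPM against 0.354 to 0.384 in the other control males. Rpp25 in BPA female 4 was at 0.254 CPM, where the rest of its group lay at 0.424 to 0.434, and that library was the shallowest of the 16. Pop5 in BPA male 2 was at 17.3 CPM against 19.6 to 19.97 in the other BPA males, and that library had the highest astrocyte sum.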

How the results depend on the processing

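None of the 9 subunits other than Rpp30 was called in any contrast under any alternative that was run. Rpp30 was not called in males, in females or over both sexes under any of them. For a gene chosen on its pattern in these libraries, neither a call nor its absence is a test. The Rpp30 log2 fold change in males stayed between −0.86 and −0.69. The count of all genes called moved: in males, from 1, to 2 with no filter, 3 with the trend fit, 4 with only the groups compared and 0 without both BPA male 2 and BPA female 1; in females, from 0, to 2 with no filter and 1 with only the groups compared; over both sexes, from 3, to 0 with a mean of at least 1 CPM, 0 with the replicate block and 0 without those 2 libraries; between the sexes with BPA, from 8 to 3 with only the groups compared. Leaving out 1 library gave 0 to 3 in males, 0 to 5 over both sexes, 0 to 3 for the difference, 4 to 9 between the sexes in controls and 3 to 21 with BPA, 21 being without BPA male 2. Of small log2 fold changes, Pop7 in males (−0.0018) turned to 0.0005, 0.0137, 0.0003, 0.0062, 0.0259, 0.0868 and 0.0077 with median-of-ratios scaling, no filter, at least 1 CPM, the replicate block, the trend fit, without the 2 libraries and with only the groups compared. Rpp25l in females (−0.0061) turned to 0.0014, 0.0006 and 0.0034 with median-of-ratios scaling, no filter and only the groups compared. Without the 2 libraries, Rpp38 (0.0294) and Pop5 (0.0207) in males and Rpp38 (0.0405) and Pop4 (0.0558) in females also turned. With 1 library left out, values that changed sign ran, in males, from −0.0045 to 0.0674 (Rpp14), −0.0185 to 0.1525 (Rpp21), −0.1603 to 0.0199 (Rpp38), −0.0344 to 0.1542 (Pop4), −0.0695 to 0.0121 (Pop5) and −0.0849 to 0.0783 (Pop7), and in females from −0.1559 to 0.0429 (Rpp30), −0.0963 to 0.0270 (Rpp38), −0.0507 to 0.0425 (Pop4) and −0.0279 to 0.0293 (Rpp25l). Values that kept their sign but moved by over 1.5 times with 1 library left out were, in males, Rpp25 (to −0.0291), Rpp40 (to −0.0088), Hsd17b10 (to 0.1022) and Polr3b (to 0.1155), and in females Rpp14 (0.0265 to 0.1085), Rpp21 (−0.1404 to −0.0074), Rpp25 (−0.6136 to −0.1788), Pop1 (0.0438 to 0.1925), Pop5 (0.0452 to 0.1221), Trmt10c (to −0.1083) and Snapc5 (to −0.0875). The cause of these moves was not tested. Correlations between same-numbered libraries ran from −0.238 to 0.231, and 7 of 24 exceeded 0.1. Differently numbered libraries were not compared, so whether replicate numbers pair libraries cannot be told from these values. The planned quasi-likelihood and Wald count tests were not run. Depth limits Rpp25 and Rpph1, with 3 to 30 counts a library.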
